A study of Mus musculus with 3 samples.

Results

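The genes described here are those whose symbol on the array begins with Zfp and a number, the mouse name for zinc finger proteins. The 9 symbols that begin with Zfp36 were left out by that start alone, whatever kind of protein they name. The genes described number 211 of the 16391 named genes and were read by 213 of 23473 probes. Membership goes by name alone and uses no measured value, though the family was taken up with earlier results of these data known. In current nomenclature 179 of them still carry a Zfp symbol, 13 are Zscan or Zkscan genes, 6 are Zbtb genes and 13 have another name. The array's symbol is used throughout, with the current one given where it differs.

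Cells of IL-10 Venus reporter mice were separated on a flow cytometer into 3 populations, with 1 array for each. In these mice the fluorescent protein Venus reports Il10 expression. They were bone marrow Venus+ CD138hi cells, spleen Venus+ CD138hi cells and spleen B220+ cells, in the untreated, freshly isolated state. CD138 marks antibody-secreting cells and B220 marks B cells. All mice carried the reporter, and the labels state neither their number nor their age. With no replicate array there is no test, no SD and no p-value for any value, and a ratio compares 2 arrays, in which the cell type and the single preparation cannot be told apart.

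Most Zfp genes encode proteins with tandem C2H2 zinc fingers, short folds held by a zinc ion that read DNA bases. Many of them join the fingers to a KRAB domain, which recruits the co-repressor Trim28 and, through it, enzymes that deposit repressive histone methylation, and the KRAB branch is best known for silencing transposable elements. Such genes arose by repeated local duplication and lie in chromosomal clusters. Others in the list have unrelated work, in RNA splicing, ribosome quality control, vesicle traffic or ubiquitination, and share only the name. Differentiation of B cells into antibody-secreting cells is driven by Blimp1 and Irf4 and silences much of the B cell programme.

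**Figure D1:**
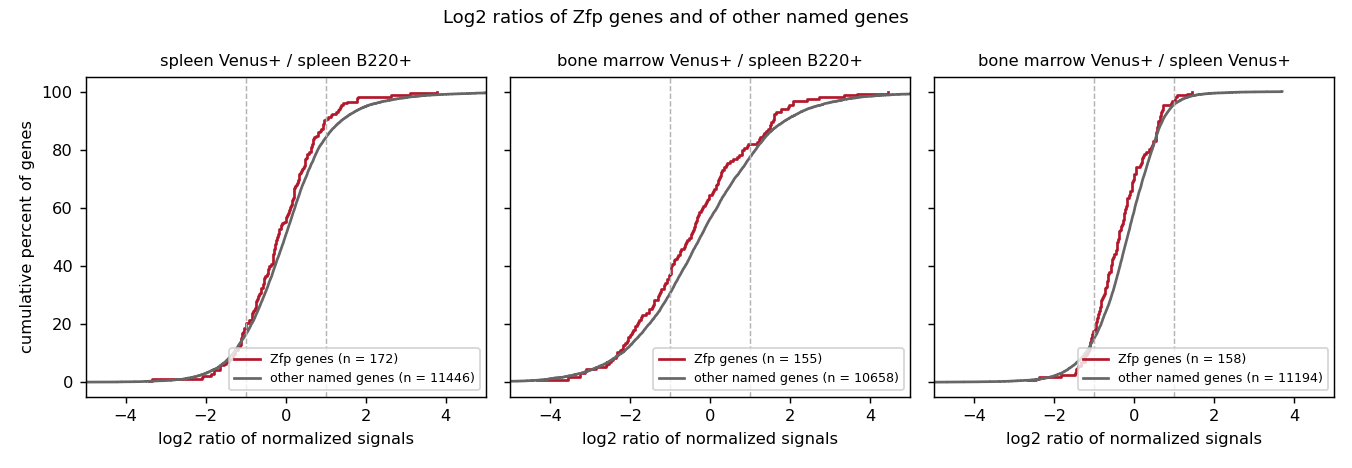
Cumulative percent of genes (vertical axis) by log2 ratio of normalized signals (horizontal axis), for Zfp genes (red) and other named genes (grey) detected on both arrays of each of the 3 comparisons. Dashed lines mark a 2-fold difference. The red curve lies to the left of the grey curve over most of the range, with medians of -0.21 for Zfp genes in spleen Venus+ against B220+ cells, -0.47 in bone marrow Venus+ against B220+ cells and -0.38 in bone marrow against spleen Venus+ cells.

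Signals are array intensities minus the level of blank spots, scaled so that the median detected probe of an array is 25, and a probe counts as detected above the blank mean plus 2 SD. Zfp genes were detected somewhat more often than named genes as a whole. Of the 211 members, 159 (75.4%) were detected in bone marrow Venus+ cells, 178 (84.4%) in spleen Venus+ cells and 179 (84.8%) in B220+ cells, against 70.3%, 75.8% and 74.2% of all named genes on the same 3 arrays. On all 3 arrays 155 members were detected, and on none 25 were. Among those 155, signal was highest in B220+, intermediate in spleen Venus+ and lowest in bone marrow Venus+ cells for 77 (49.7%), an order that 40.7% of the other named genes followed, and the opposite order held for 36 members (23.2%) and 30.2% of the other genes.

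Summed marker signals followed the labels of the sorted cells, though single genes did not all do so. Summed over 9 plasma cell markers, signal was 29492 in bone marrow Venus+, 18389 in spleen Venus+ and 714 in B220+ cells. Xbp1, Ighm and Prg2 gave 8402, 8234 and 6082 of the bone marrow sum. Between the Venus+ populations 2 of the 9 ran against it. Prdm1, the gene of Blimp1, gave 34.4 in bone marrow, 81.5 in spleen Venus+ and 8.72 in B220+ cells, and Irf4 gave 688, 1128 and 321. Over 13 mature B cell markers it was 4530, 11945 and 31396, and Cd79b gave 3510 of the bone marrow sum. Pax5 was undetected in bone marrow Venus+ cells and Cr2 in both Venus+ populations. Blk ran against the B cell sum in spleen Venus+ cells, with 982 against 718 in B220+ cells. Markers of other cells also differed. A list of 10 neutrophil markers summed to 216, 29.1 and 5066 in the same order, with 8, 3 and 9 of the 10 detected, and Mpo, Ltf, Camp and S100a9 undetected in spleen Venus+ cells. Mpo ran against the sum, with 29.8 in bone marrow Venus+ and 2.22 in B220+ cells. A list of 10 T cell markers summed to 1650, 1318 and 55.2, with 9, 10 and 8 detected, Zap70 undetected in bone marrow Venus+ and Cd3e and Cd3g undetected in B220+ cells. Most of that sum in the Venus+ cells came from Cd247 and Cd28. Their part in the ratios of the Zfp genes was not tested. In such mixed RNA, fewer cells of a type and less RNA per cell cannot be told apart.

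Promoter sequences are given first for 6 members taken from the ends of the 3 comparisons, so that the letters upstream of each gene stand beside its values. RefSeq windows of 300 bases, reaching from upstream of the annotated start to just past it (GRCm38.p6), matched 166 members by symbol and were lacking for 45. Capitals mark matches, on either strand, to 6 motifs. These were AGNGAAAG, the core bound by Blimp1; AAANNGAAA, an interferon regulatory factor core that can overlap the first; TGACGTGG for Xbp1; AAGATGGCG for YY1; CCGGAAGT for ETS factors; and GCGCATGCG for NRF1. Zfp105 and Zfp27 had the largest ratios over B220+ cells, and the second window of Zfp27 held a YY1 and an ETS match. Zfp318, Zfp238 (now Zbtb18) and Zfp52 were at the low end, and Zfp692 had the largest ratio of bone marrow over spleen Venus+ cells. Of 5 windows of Zfp238 only the one with the Blimp1 core is printed, and 2 of the other windows hold the interferon regulatory factor core. The rest of these members are given with every window they have. The windows read 5′ to 3′.
Zfp105, chr9:122922828-122923127, plus strand: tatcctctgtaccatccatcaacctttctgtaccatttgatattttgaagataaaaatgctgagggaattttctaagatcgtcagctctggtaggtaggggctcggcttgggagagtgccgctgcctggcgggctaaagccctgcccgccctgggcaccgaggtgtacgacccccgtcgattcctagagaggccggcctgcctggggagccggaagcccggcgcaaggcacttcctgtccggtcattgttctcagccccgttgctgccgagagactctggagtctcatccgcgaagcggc
Zfp27, chr7:29906483-29906782, minus strand: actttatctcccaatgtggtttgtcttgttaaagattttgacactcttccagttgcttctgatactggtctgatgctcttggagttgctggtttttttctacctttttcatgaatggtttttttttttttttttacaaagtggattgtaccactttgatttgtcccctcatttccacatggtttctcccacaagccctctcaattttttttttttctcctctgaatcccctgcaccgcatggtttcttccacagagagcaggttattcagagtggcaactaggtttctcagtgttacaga
Zfp27, chr7:29906055-29906354, minus strand: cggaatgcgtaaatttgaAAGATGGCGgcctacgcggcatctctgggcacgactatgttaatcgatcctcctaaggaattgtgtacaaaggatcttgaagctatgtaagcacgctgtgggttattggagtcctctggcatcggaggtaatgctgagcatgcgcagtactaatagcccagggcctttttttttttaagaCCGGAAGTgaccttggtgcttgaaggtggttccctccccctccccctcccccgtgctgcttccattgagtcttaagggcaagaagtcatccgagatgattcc
Zfp318, chr17:46383516-46383815, plus strand: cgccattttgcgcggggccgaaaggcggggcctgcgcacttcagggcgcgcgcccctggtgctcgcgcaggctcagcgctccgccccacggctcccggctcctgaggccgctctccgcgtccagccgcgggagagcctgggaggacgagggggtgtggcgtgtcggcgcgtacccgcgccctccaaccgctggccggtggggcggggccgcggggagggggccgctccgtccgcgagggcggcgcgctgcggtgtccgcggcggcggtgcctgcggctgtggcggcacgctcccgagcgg
Zfp238 (Zbtb18), chr1:177442101-177442400, plus strand: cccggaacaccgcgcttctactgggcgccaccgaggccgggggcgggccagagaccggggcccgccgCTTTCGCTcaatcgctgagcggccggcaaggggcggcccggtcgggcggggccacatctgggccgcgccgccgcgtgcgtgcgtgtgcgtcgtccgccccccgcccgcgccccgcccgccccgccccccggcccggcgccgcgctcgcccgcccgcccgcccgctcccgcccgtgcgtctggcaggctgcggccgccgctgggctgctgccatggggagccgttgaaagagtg
Zfp52, chr17:21535289-21535588, plus strand: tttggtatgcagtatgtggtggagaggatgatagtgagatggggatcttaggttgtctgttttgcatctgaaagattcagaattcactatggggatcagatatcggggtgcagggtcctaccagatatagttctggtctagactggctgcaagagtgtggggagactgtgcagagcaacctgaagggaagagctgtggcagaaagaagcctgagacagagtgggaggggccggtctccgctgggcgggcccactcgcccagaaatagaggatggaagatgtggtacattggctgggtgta
Zfp692, chr11:58306819-58307118, plus strand: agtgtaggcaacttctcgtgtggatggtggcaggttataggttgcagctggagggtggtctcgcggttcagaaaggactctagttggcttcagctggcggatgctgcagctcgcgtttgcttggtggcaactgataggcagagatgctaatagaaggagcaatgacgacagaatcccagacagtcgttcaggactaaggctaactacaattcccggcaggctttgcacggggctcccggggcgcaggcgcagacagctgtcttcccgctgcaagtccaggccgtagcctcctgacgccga

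Matches to these motifs were few. The ETS motif was in 13.6% of 221 member windows, against 5.71% of the 16401 windows of named genes on the array and 3.89% of all 32851 windows. The NRF1 motif was in 4.98% of member windows against 2.74% and 1.75%, and the YY1 motif in 3.17% against 2.13% and 1.40%. The Blimp1 core was in 5.88% of member windows against 8.13% and 8.63%, the interferon regulatory factor core in 5.88% against 9.06% and 10.6%, and the Xbp1 motif in 0.452% against 0.780% and 0.676%. Base composition was alike in members and array genes, with a median G+C of 58.3% in both and 17 against 16 CpG pairs per window.

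Set against the calls for bone marrow Venus+ over B220+ cells described further on, the ETS motif was in 5 of 35 windows of higher members and 9 of 59 windows of lower members. The NRF1 motif was in 0 of the 35 and 7 of the 59, and in 3 of 68 windows of members in between. The Blimp1 core was in 0 of 35 and 4 of 59, and in 4 of 68 in between. Set against the calls for spleen Venus+ over B220+ cells, the ETS motif was in 4 of 17 windows of higher, 4 of 37 of lower and 15 of 127 of in-between members. The NRF1 motif was in 0, 2 and 8 of the same windows and the Blimp1 core in 0, 4 and 6. A match is a description of the letters and says nothing about binding. The Blimp1 core was in 6.78% of windows of members lower in bone marrow and 10.8% of those lower in spleen, against 8.13% of array windows. The 7 members with the core that were at least 2-fold lower against B220+ cells in either Venus+ population, bounds included, are shown with the match in capitals. They are shown since Blimp1 is the factor named in the study's title. Other members with the core, such as Zfp169, Zfp313 and Zfp622, were not lower by this rule and are not shown. A match on the opposite strand appears as its reverse complement.
Zfp184, chr13:21945020-21945049, plus strand: gggggaaaccaAGGGAAAGggtctacgcga
Zfp212, chr6:47920332-47920361, plus strand: cctccctacgcCTTTCTCTctctctctctc
Zfp238, chr1:177442157-177442186, plus strand: ggggcccgccgCTTTCGCTcaatcgctgag
Zfp265, chr3:157534110-157534139, plus strand: aacggaagcgcCTTTCTCTagggtccttcg
Zfp451, chr1:33814753-33814782, minus strand: cagtgtctctaAGTGAAAGgcggcagcgga
Zfp455, chr13:67194392-67194421, plus strand: aatctaagaccAGGGAAAGaccacattcag
Zfp668, chr7:127877008-127877037, minus strand: agtggtagctgAGGGAAAGgtgcgggagag

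In spleen Venus+ CD138hi cells against spleen B220+ cells, Zfp genes were seldom higher and about as often lower as other genes. Of 172 members detected on both arrays, 17 (9.88%) were at least 2-fold higher, against 15.7% of all named genes, and 32 (18.6%) at least 2-fold lower, against 16.5%. The median log2 ratio was -0.21 for the members and -0.02 for all named genes, and the middle of the members ran from -0.77 to 0.47 between quartiles. Detection on 1 array alone, with a fold of at least 2 as a lower bound, held for 4 members that were higher (1.90% of members, against 3.13% of named genes) and 4 that were lower (1.90%, against 0.909%). A background correction with an added offset (normexp) compresses dim signals. With it, 2 members (1.16%) were higher, against 3.53% of all genes, and 13 (7.56%) lower, against 10.1%. The members' median minus that of all genes was then -0.023. The share of higher members was thus under the background in both, while the share of lower members was slightly over it in the main processing and under it with normexp.

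Zfp105, a zinc finger gene of chromosome 9, gave signals of 55.0 in bone marrow Venus+, 73.7 in spleen Venus+ and 5.37 in B220+ cells. Both Venus+ arrays were far above the B220+ array, and the spleen ratio was 13.7-fold (log2 3.78 ± 0.23, where the error here and below is the spot error from blank and positive control spots and not a spread between animals). Zfp27, on chromosome 7, gave 187, 74.4 and 8.59 in the same order of populations, 8.66-fold higher in spleen Venus+ cells (log2 3.12 ± 0.18). These 2 genes were at least 2-fold higher under each of 7 alternative settings of background, scaling, detection and probe choice. The setting on probe choice could not change a member read by 1 probe, as both were. Zfp75 (now Zfp317) gave 78.6, 38.7 and 6.21, with a spleen log2 ratio of 2.64 ± 0.21.

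The other 7 of the 10 largest spleen ratios lay between 1.35 and 1.81 on the log2 scale. Zfp42, known as Rex1 and used as a marker of pluripotent cells, gave 6.25, 5.66 and 1.61 in bone marrow Venus+, spleen Venus+ and B220+ cells, with a spleen log2 ratio of 1.81 ± 0.65. Its B220+ signal lay just above the lowest detected signal of that array, 1.34. Zfp579, Zfp418, Zfp316, Zfp358, Zfp612 and Zfp641 had spleen log2 ratios of 1.78, 1.78, 1.52, 1.44, 1.37 and 1.35. Detected in spleen Venus+ but not in B220+ cells, Zfp324 was at least 5.66-fold higher, Zfp384 at least 3.09-fold, Zfp710 at least 2.71-fold, Zfp395 at least 2.13-fold and Zfp385 (now Zfp385a) at least 1.88-fold higher. Zfp384 is a regulator of extracellular matrix genes in bone cells.

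Zfp318 had the smallest ratio. This nuclear protein is needed in mature B cells for making IgD from the shared IgM and IgD transcript. Its signals were 9.57 in bone marrow Venus+, 10.5 in spleen Venus+ and 112 in B220+ cells, so that both Venus+ arrays stood about level and far below B220+ cells (spleen log2 ratio -3.41 ± 0.18, a 10.7-fold difference). Zfp238, now Zbtb18, a transcriptional repressor known from brain development, was not detected in bone marrow Venus+ cells and gave 15.7 in spleen Venus+ and 160 in B220+ cells, a spleen log2 ratio of -3.35 ± 0.16. Zfp608, reported in mouse thymocytes to hold down the recombinase genes, gave 55.0 in B220+ cells and was undetected in both Venus+ populations, at least 31.7-fold lower in spleen Venus+ cells. The 3 genes thus had clear signals in B220+ cells and low or no signals in one or both Venus+ populations.

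Several lower members were renamed genes that are not classical DNA-binding zinc finger factors. Zfp291, now Scaper, a cyclin A-associated protein of the endoplasmic reticulum, gave 36.1, 74.6 and 313 in bone marrow Venus+, spleen Venus+ and B220+ cells (spleen log2 ratio -2.07 ± 0.14). Zfp198, now Zmym2, a MYM-type zinc finger protein fused to FGFR1 in a human myeloproliferative disease, gave 70.0, 145 and 503 (spleen log2 ratio -1.79 ± 0.14). Both were highest in B220+ and lowest in bone marrow Venus+ cells. Of the rest of the 10 smallest spleen ratios, Zfp61 stood at -2.10, Zfp560 at -1.87, Zfp53 at -1.80, Zfp52 at -1.65, Zfp263 at -1.65 and Zfp639 at -1.63. Undetected in spleen Venus+ cells, Zfp667 was at least 4.16-fold lower, Zfp462 at least 3.17-fold, Zfp184 at least 2.67-fold and Zfp287 at least 1.91-fold lower than in B220+ cells. Under the same 7 settings 9 members were at least 2-fold lower, led by Zfp318, Zfp291, Zfp560, Zfp198 and Zfp263. The share of all named genes that passed all 7 settings is not given here, so these 9 and the 2 higher members have no background.

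**Figure D2:**
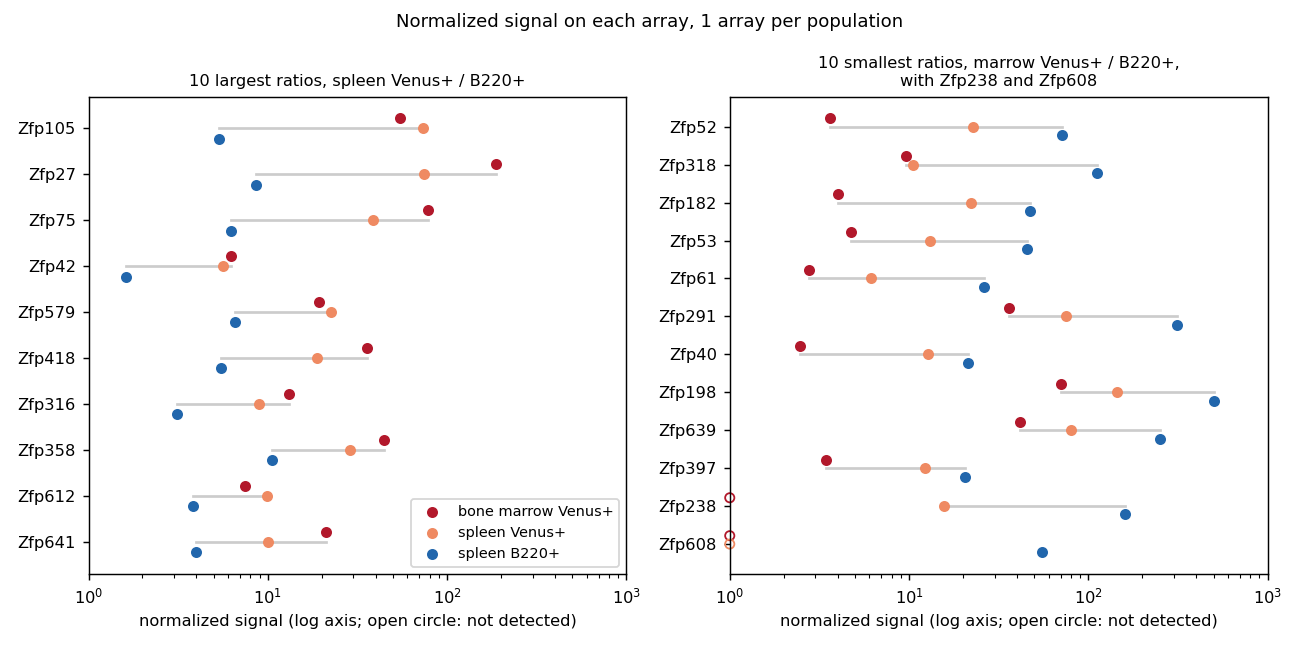
Normalized signal (horizontal log axis) of the 10 members with the largest spleen Venus+ over B220+ ratios (left) and of the 10 with the smallest bone marrow Venus+ over B220+ ratios plus Zfp238 and Zfp608 (right), with 1 point per array; an open circle at the axis marks a probe that was not detected. On the left the B220+ point (blue) is lowest in every row, and on the right it is highest in every row, from 20.5 for Zfp397 to 503 for Zfp198.

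More Zfp genes passed 2-fold in bone marrow Venus+ than in spleen Venus+ cells when each was set against B220+ cells, and so did more genes overall. Of 155 members detected on both arrays, 28 (18.1%) were at least 2-fold higher, against 22.4% of all named genes, and 57 (36.8%) at least 2-fold lower, against 30.7%. The median log2 ratio was -0.47 for the members and -0.24 for all named genes. Seen on a single array, with a lower bound of 2-fold or more, were 3 higher members (1.42%, against 3.98% of named genes) and 15 lower members (7.11%, against 3.42%). Normexp background left 3 higher (1.94%, against 5.34% of all genes) and 24 lower (15.5%, against 19.8%), so that the share of lower members went under the background. The members' median was then 0.0195 above that of all genes, which turned its direction. Scaling on the probes detected on all 3 arrays moved the median of all genes to 0.05 and gave 35 higher and 46 lower members, against 28.3% higher and 24.1% lower among all genes.

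**Figure D3:**
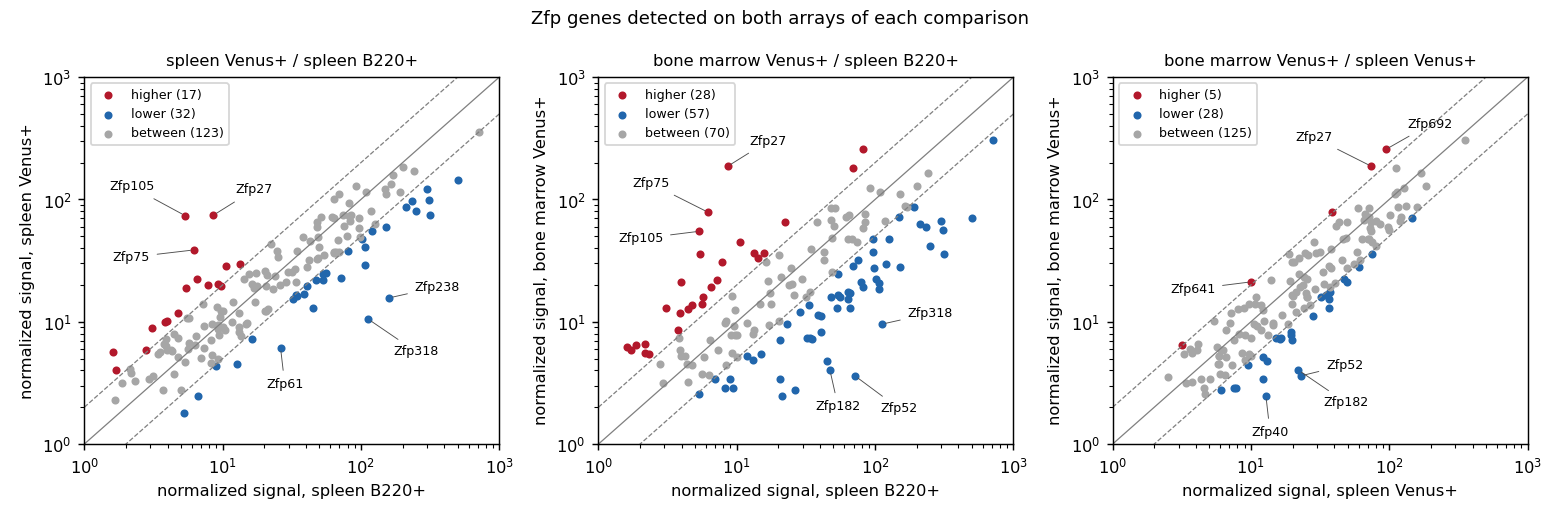
Normalized signal of each Zfp gene on the first-named array (vertical log axis) against the second-named array (horizontal log axis), for the 3 comparisons; red points are at least 2-fold higher, blue points at least 2-fold lower, and dashed lines mark 2-fold. Blue points outnumber red ones in each panel, with 32 against 17, 57 against 28 and 28 against 5.

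The B220+ array is common to both comparisons with B220+ cells, so their calls are set side by side without a measure of likeness. Of the 155 members detected on all 3 arrays, 13 were at least 2-fold higher in both Venus+ populations (8.39%, against 14.7% of the 10769 named genes detected on all 3), among them Zfp27, Zfp75, Zfp105, Zfp418 and Zfp358. At least 2-fold lower in both were 27 (17.4%, against 14.4%), and none was higher in one and lower in the other. Another 30 were lower in bone marrow Venus+ cells alone (19.4%, against 16.3%) and 15 higher there alone (9.68%, against 7.67%), while 4 (Zfp3, Zfp499, Zfp612 and Zfp623) were higher in spleen Venus+ cells alone (2.58%, against 1.82%).

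The largest bone marrow ratio was that of Zfp27, 21.7-fold (log2 4.44 ± 0.17), followed by Zfp75 at 3.66 ± 0.21 and Zfp105 at 3.36 ± 0.23, and these 3 were called higher under all 7 settings. Zfp418 gave 35.8 in bone marrow Venus+, 18.7 in spleen Venus+ and 5.45 in B220+ cells (bone marrow log2 ratio 2.72 ± 0.23). Zfp641 gave 21.2, 10.1 and 3.95 (2.42 ± 0.29). Like Zfp27 and Zfp75, both genes were highest in bone marrow and lowest in B220+ cells. Zfp358, Zfp316, Zfp371 (now Zscan5b), Zfp42 and Zfp454 followed with log2 ratios of 2.08, 2.07, 1.98, 1.96 and 1.78. Undetected in B220+ cells, Zfp710 was at least 4.44-fold higher in bone marrow Venus+ cells, Zfp385 at least 2.61-fold, Zfp324 at least 2.12-fold and Zfp694 (now Zkscan2) at least 1.81-fold higher.

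At the other end stood Zfp52, a gene of a chromosome 17 cluster. It gave 3.61 in bone marrow Venus+, 22.9 in spleen Venus+ and 71.6 in B220+ cells, a bone marrow log2 ratio of -4.31 ± 0.49 and a 19.8-fold difference. Its bone marrow signal was close to the lowest detected signal of that array, 2.35. Zfp318 stood at -3.55 ± 0.22 and Zfp182, on the X chromosome, at -3.55 ± 0.44, with 4.02, 22.1 and 47.2 for Zfp182 in the same order of populations. Unlike Zfp318, whose 2 Venus+ signals were alike, Zfp52 and Zfp182 were much lower in bone marrow than in spleen Venus+ cells. Zfp53, Zfp61, Zfp291, Zfp40, Zfp198, Zfp639 and Zfp397 completed the 10 smallest, with log2 ratios of -3.26, -3.24, -3.12, -3.10, -2.84, -2.59 and -2.57. Under all 7 alternative settings 18 members were lower, led by Zfp52, Zfp318, Zfp291, Zfp198 and Zfp639. For this count, too, and for the higher members that passed all settings, no share of all named genes is given.

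Among members undetected in bone marrow Venus+ cells, Zfp238 was at least 68.1-fold lower than in B220+ cells and Zfp608 at least 23.4-fold lower. Zfp91, a ubiquitin ligase of the non-canonical NF-kB pathway, gave 7.26 in spleen Venus+ and 16.4 in B220+ cells and was at least 6.99-fold lower in bone marrow. Zfp236 was at least 5.73-fold and Zfp518 (now Zfp518a) at least 5.39-fold lower. A bound can understate a difference, and none of these 5 has a measured bone marrow level.

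Between the Venus+ populations, bone marrow against spleen, few Zfp genes were higher, as among all genes. Of 158 members detected on both arrays, 5 (3.16%) were at least 2-fold higher, against 4.33% of all named genes, and 28 (17.7%) at least 2-fold lower, against 15.2%. The median log2 ratio was -0.38 for the members and -0.17 for all named genes. Of those seen on a single array with a lower bound of 2-fold or more, 0 members were higher (against 0.451% of named genes) and 10 lower (4.74%, against 1.87%). These counts depend on the scaling. With probes detected on all 3 arrays as the base, the median of all genes moved to 0.16 and 12 members were higher and 9 lower, so the excess of lower over higher calls was gone (against 11% higher and 8.07% lower of all genes). With normexp background, 0 members were called either way (0.546% higher and 2.77% lower among all genes), and the members' median minus that of all genes was -0.018, in place of -0.21.

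The 5 higher members were Zfp692, Zfp27, Zfp641, Zfp75 and Zfp354b. Zfp692 gave 256 in bone marrow Venus+, 94.3 in spleen Venus+ and 81.4 in B220+ cells, so that bone marrow alone stood apart (log2 ratio over spleen 1.44 ± 0.11, 2.72-fold). Zfp27 was higher in bone marrow than in spleen Venus+ cells as well, at 1.33 ± 0.11, Zfp641 stood at 1.07, and Zfp75 and Zfp354b at 1.02 each. The next 5 ratios were those of Zfp418 (0.93), Zfp286 (0.92), Zfp235 (0.72), Zfp13 (0.72) and Zfp710 (0.71), all under 2-fold.

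The smallest ratios of bone marrow over spleen Venus+ cells were -2.66 ± 0.49 for Zfp52, -2.46 ± 0.44 for Zfp182 and -2.37 ± 0.70 for Zfp40, which gave 2.48, 12.8 and 21.3 in bone marrow Venus+, spleen Venus+ and B220+ cells. Zfp397, Zfp592, Zfp84, Zfp53, Zfp217, Zfp324 and Zfp653 followed at -1.83, -1.48, -1.46, -1.46, -1.44, -1.41 and -1.33. Zfp592 belongs to a chromatin complex with Zfp687, and Zfp217 is an oncogene amplified in human breast cancer. Undetected in bone marrow, Zfp238 was at least 6.67-fold lower than in spleen Venus+ cells, Zfp668 at least 3.97-fold, Zfp202 at least 3.93-fold, Zfp189 at least 3.62-fold and Zfp236 at least 3.24-fold lower. No member kept its call in this comparison under all 7 settings, in either direction, and the share of all named genes that did is not given here.

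Members with a known role outside the largest ratios were read by that role. Among regulators of lymphocytes and stem cells, Zfp521, an oncogene of mouse B cell lymphoma, was not detected on any array. Zfp423, a partner of Ebf1 and of bone morphogenetic protein signalling, gave 22 in bone marrow Venus+, 14 in spleen Venus+ and 7.23 in B220+ cells, with log2 ratios over B220+ cells of 1.60 ± 0.20 in bone marrow and 0.95 ± 0.21 in spleen. Zfp335, a chromatin co-regulator needed for T cell maturation, gave 9.42, 14.5 and 17.2 and stayed under 2-fold. Zfp281, a factor of pluripotent cells, gave 21.1, 49.8 and 79.3, which was at least 2-fold lower in bone marrow than on either other array (-1.91 ± 0.16 over B220+ and -1.24 ± 0.14 over spleen Venus+ cells). Zfp148, which binds GC-rich promoters, gave 32.3, 61.0 and 75.6, at -1.23 ± 0.14 in bone marrow and -0.31 ± 0.14 in spleen Venus+ over B220+ cells.

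Genes of imprinting and of chromatin were mixed. Zfp57, which keeps imprinted regions methylated, was not detected on any array. Zfp445, its partner in that work, gave 17 in bone marrow Venus+, 36.8 in spleen Venus+ and 66.1 in B220+ cells, a bone marrow log2 ratio of -1.96. Zfp410, a factor that activates the remodeller gene Chd4, gave 17.5, 21.1 and 34.1, with log2 ratios of -0.97 ± 0.17 in bone marrow and -0.69 ± 0.15 in spleen Venus+ over B220+ cells, both short of 2-fold. Chd4 itself gave 187, 333 and 759, at -2.02 and -1.19. Both genes were highest in B220+ and lowest in bone marrow Venus+ cells, as were 77 of 155 members, and no relation between them was tested.

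Members that act on RNA or in mitosis were mixed. Zfp326, a link between transcription elongation and splicing, gave 20.9 in bone marrow Venus+, 40.5 in spleen Venus+ and 106 in B220+ cells (log2 ratios over B220+ of -2.35 ± 0.16 and -1.39 ± 0.14). Zfp265 (now Zranb2), a splicing factor, gave 66.3, 121 and 299. Both were at least 2-fold lower in each Venus+ population. Zfp346, which binds double-stranded RNA, gave 16.6, 35.2 and 53.9, lower by at least 2-fold in bone marrow. Zfp106, an RNA-binding protein needed for motor neurons and muscle, gave 45.2, 74.9 and 74.5, level between the spleen populations. Zfp207, a spindle protein that binds Bub3, gave 129, 185 and 202, and no pair of arrays differed 2-fold.

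Some members encode enzymes or adaptors. Zfp294 (now Ltn1), the ubiquitin ligase of ribosome-associated quality control, gave 28.4 in bone marrow Venus+, 36.8 in spleen Venus+ and 69.7 in B220+ cells (bone marrow log2 ratio over B220+ -1.29 ± 0.15). Zfp598, the ligase that marks collided ribosomes, gave 47.5, 71.1 and 96.8. Zfp313 (now Rnf114), another ubiquitin ligase, gave 88.9, 133 and 166, and Zfp259 (now Zpr1), which binds an elongation factor of translation, 71.5, 121 and 150. Zfp294, Zfp598 and Zfp259 passed 2-fold in bone marrow against B220+ cells and none of the 4 did in spleen. Zfp289 (now Arfgap2), a GTPase activator of COPI vesicles, ran the other way within 2-fold, with 68.1, 65.5 and 48.1. Zfp451, a SUMO ligase, gave 19.4, 37.6 and 81.2 and was at least 2-fold lower in both Venus+ populations.

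**Figure D4:**
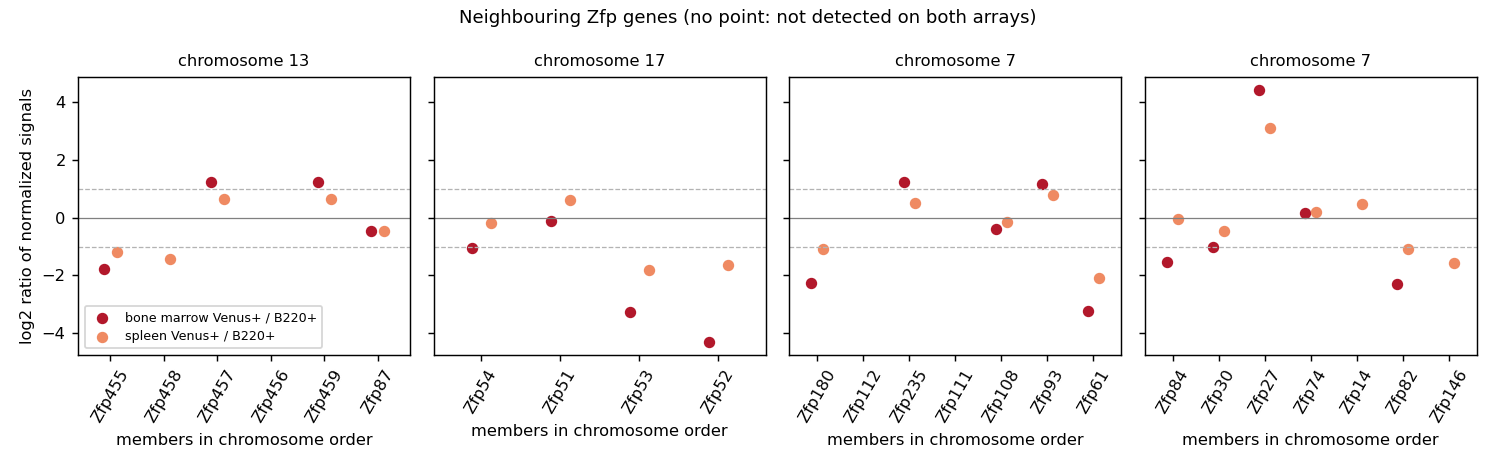
Log2 ratios (vertical axis) over B220+ cells of bone marrow Venus+ (dark red) and spleen Venus+ cells (orange) for the Zfp genes of 4 chromosomal runs, in chromosome order along the horizontal axis with no distances; dashed lines mark 2-fold, and a missing point was not detected on both arrays. In 1 chromosome 7 run Zfp27 stands at 4.44 (bone marrow) and 3.12 (spleen). The next members on either side stand at -1.03 and -0.46 (Zfp30) and at 0.16 and 0.21 (Zfp74).

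Ratios within runs of neighbouring Zfp genes were mixed. Members with at most 5 protein-coding genes between them formed 15 runs of 3 or more, with 67 members in all. In bone marrow Venus+ against B220+ cells, 11 of 50 members in runs were higher and 17 lower, with a median log2 ratio of -0.41, against 17 and 40 of 105 outside runs, with a median of -0.57. The shares in runs, 22% higher and 34% lower, lay near the 22.4% and 30.7% of all named genes. A run on chromosome 7 held Zfp84, Zfp30, Zfp27, Zfp74, Zfp14, Zfp82 and Zfp146, and its bone marrow ratios ran from -2.31 for Zfp82 to 4.44 for Zfp27. The chromosome 17 run of Zfp54, Zfp51, Zfp53 and Zfp52 had a median of -2.16, with 3 of the 4 lower, though Zfp51 stood at -0.10. Bone marrow signals of these 4 were dim, from 2.55 to 4.74, near the lowest detected signal of that array, 2.35. Zfp54 passed 2-fold narrowly, at -1.06 ± 0.70. Genes of one cluster can be similar in sequence, and how far a probe also binds a neighbour's transcript was not checked here.

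Chromosome 7 held 49 members, and chromosome 17, taken up here after its values were seen, held 15. Of 12 on chromosome 17 detected on both arrays, 8 were lower and 1 higher in bone marrow Venus+ against B220+ cells (median log2 ratio -1.54). Of 33 such members on chromosome 7, 9 were lower and 7 higher (median -0.08). On all other chromosomes together 40 of 110 were lower and 20 higher (median -0.54). Single chromosomes among these varied too, with 4 of 6 lower on chromosome 16, 7 of 13 on chromosome 5 and 1 of 10 on chromosome 8. In spleen Venus+ against B220+ cells, 5 of 12 were lower on chromosome 17 and 5 of 37 on chromosome 7. The background for these lower calls, over all named genes, is the 30.7% and 16.5% given with each comparison.

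**Figure D5:**
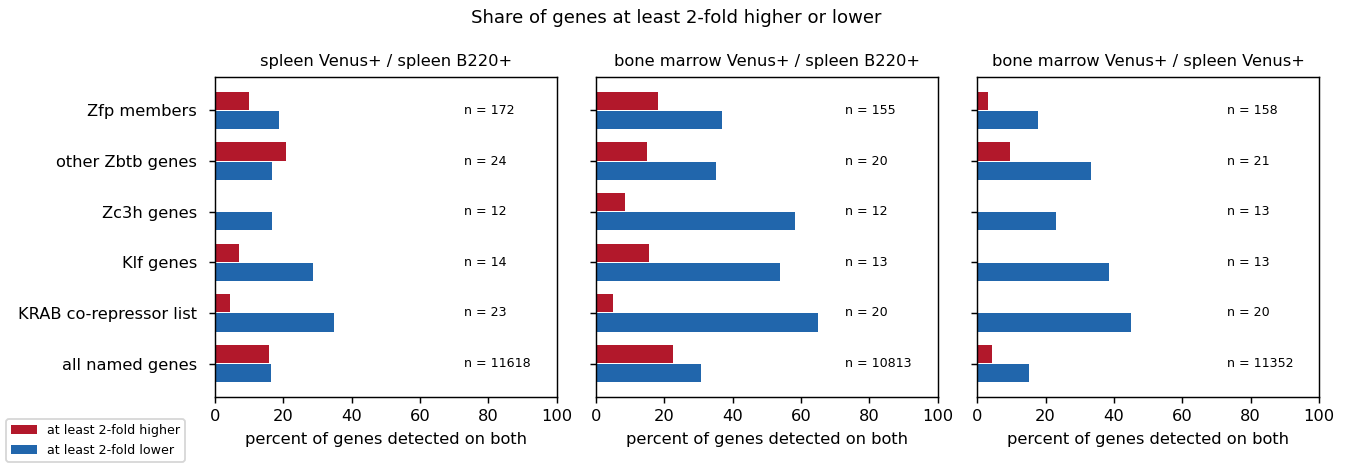
Percent of genes at least 2-fold higher (red) and lower (blue) among those detected on both arrays, from 0, for Zfp genes, 3 other zinc finger families, the KRAB co-repressor list and all named genes in the 3 comparisons, with the number of genes at the right. The lower share for bone marrow Venus+ against B220+ cells runs from 30.7% for all named genes to 36.8% for Zfp genes and 65% for the co-repressor list.

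Other zinc finger families give a scale for these shares. In bone marrow Venus+ against B220+ cells, 7 of 20 other Zbtb genes, 7 of 12 Zc3h genes and 7 of 13 Klf genes were at least 2-fold lower, with median log2 ratios of -0.06, -1.09 and -1.50, against -0.47 for Zfp genes. Of all named genes 30.7% were lower, with a median of -0.24. A further 61 genes now have a Zfp symbol but stand under an older one on the array, which the choice by name leaves out. Of 44 of them detected on both arrays, 5 were higher and 21 lower (median -0.98), against 22.4% and 30.7% of all named genes. In spleen Venus+ against B220+ cells 5 of 51 were higher and 7 lower (median -0.29), against 15.7% and 16.5%.

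Genes of the machinery through which KRAB zinc finger proteins act were often lower in Venus+ cells, most of all in bone marrow. Of 25 co-repressor genes listed from textbook knowledge 24 were on the array. In bone marrow Venus+ against B220+ cells 13 of 20 detected on both arrays were at least 2-fold lower and 1 higher, with a median log2 ratio of -1.41, against 30.7% lower and a median of -0.24 for all named genes. In spleen Venus+ against B220+ cells 8 of 23 were lower and 1 higher (median -0.79), against 16.5% and 15.7% of all named genes. In bone marrow against spleen Venus+ cells 9 of 20 were lower and 0 higher (median -0.89), against 15.2% and 4.33%. Results for this list under the alternative settings are not given here.

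Trim28, the co-repressor that KRAB domains bind, gave 44.4 in bone marrow Venus+, 97.8 in spleen Venus+ and 87.3 in B220+ cells, a log2 ratio of -1.14 for bone marrow over spleen Venus+ cells and of -0.98 over B220+ cells. Setdb1, the histone methyltransferase it recruits, gave 16.3, 54.5 and 75, a bone marrow log2 ratio of -2.20 over B220+ cells. Both genes were lowest in bone marrow, though Trim28 fell just short of 2-fold against B220+ cells. Setdb1 was also somewhat lower in spleen Venus+ than in B220+ cells, at -0.46. Dnmt1, the maintenance DNA methyltransferase, gave 20.8, 69.2 and 227, and Uhrf1, which brings it to replicating DNA, gave 7.52, 23.4 and 95.7. Both are also known to be abundant in dividing cells. Chd3, a remodeller of the NuRD complex, gave 114, 102 and 588, low on both Venus+ arrays, and Atf7ip, a cofactor of Setdb1, gave 471, 325 and 260, highest in bone marrow and within 2-fold.

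Most calls exceeded the spot error, which the 2-fold threshold largely ensures, and many members were dim. Median spot errors of the members were 0.16, 0.19 and 0.16 on the log2 scale in the 3 comparisons below. Passing 2 spot errors therefore adds little to a call. Of the 49, 85 and 33 members called in spleen Venus+ against B220+, bone marrow Venus+ against B220+ and bone marrow against spleen Venus+ cells, 48, 83 and 32 exceeded 2 spot errors. Both signals were under 10 for 8, 12 and 5 of them. Zfp407 and Zfp553 were the 2 members with a second probe. In each case the second probe was detected in B220+ cells alone, at 2.08 for Zfp407 and 2.20 for Zfp553, and the brighter probe, which stood for the gene, stayed under 2-fold in every comparison.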

How the data were processed

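Cy5-labelled RNA of 3 sorted populations was hybridized to Toray 3D-Gene mouse arrays, per the labels' protocols. Scanner files deposited by the authors hold the median intensity of each spot, per the file headers. A second deposited table holds intensities from which the authors subtracted the mean of blank spots and whose detected median they set to 25, per the series' design text. Values were recomputed from the spot medians, using the mean of the middle 90% of 2736 blank spots per array, detection above it plus 2 SD, and no spot with a fault mark. Detection calls differed from the deposited table for 0 probes, and values of 10 or more by at most 4.05%. In bone marrow Venus+, spleen Venus+ and B220+ cells 67.6%, 73.4% and 72.1% of probes were detected. Having 1 array per population limits the precision.

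Symbols came from the platform annotation (16631 probes with 1, 6842 with none), updated through RefSeq (172 member symbols current, 39 synonyms). A gene with several probes took the one of highest mean log2 signal. A fold against an undetected probe is a lower bound, the bright signal over the higher of the dim array's lowest detected signal and the dim probe's own. Spot errors combine the SD of blanks with the variation of 24 positive control copies (5.21%, 5.77% and 7.57% in the same order). Named members were the 10 largest and smallest log2 ratios and 5 largest bounds each way per comparison, members with several probes and those called under 7 alternative settings. A list by role was drawn up as well, but only part of it is described. Among its members left out above, Zfp37 was at least 2-fold higher in both Venus+ populations against B220+ cells, and Zfp90 and Zfp292 were lower in both. Other members were named after their values were seen, for role, place or motif. Members were set by name, and the family and the lists were chosen with earlier results of these data known. Sub-groups by finger number or KRAB domain were not analysed here. The steps were tested on simulated data (Python 3.11.15, pandas 2.3.3, limma 3.58.1 for normexp with an offset of 50).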

Additional observations from a re-analysis of the deposited data

How the results depend on the processing

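Each population has 1 array, so no replicate could be left out, and no paired analysis was possible because the samples carry no replicate numbers. The processing choice that mattered most was normexp, which joined a background correction with an added offset of 50. Such an offset by itself makes the ratios of dim signals smaller. Before correction the median spot was 51.2, 54.6 and 60.5 in bone marrow Venus+, spleen Venus+ and B220+ cells, over blank means of 41.2, 40.5 and 43.7. The correction was not tested without the offset, so their parts in the changes below cannot be told apart. With normexp, 2 members were higher and 13 lower in spleen Venus+ against B220+ cells, 3 and 24 in bone marrow Venus+ against B220+ cells, and 0 and 0 in bone marrow against spleen Venus+ cells, and the members' median minus that of all genes was -0.023, 0.0195 and -0.018, in place of -0.19, -0.23 and -0.21. Quantile normalization gave 6 higher members in the first comparison (3.87%, against 12.8% of all genes) and 26 lower (16.8%, against 13.8%). In the third it gave 12 higher (7.74%, against 8.50%) and 16 lower (10.3%, against 10.8%), both shares near those of all genes. Scaling on probes detected on all 3 arrays gave 12 higher and 9 lower in the third. A 3-fold threshold gave 6 higher and 10 lower, 15 and 37, and 0 and 4 in the 3 comparisons. The shares of all genes at 3-fold are not given here, so these counts have no background. The deposited values, a stricter detection limit (blank mean plus 3 SD), the mean over a gene's probes, membership by current Zfp symbols and a floor of 10 on the brighter signal left every count within 1.5 times. Of the 25, 34 and 17 named members called in the 3 comparisons, counting the whole list by role, normexp took 15, 22 and 17 under 2-fold, and no setting reversed a direction. Causes were not tested. Dim probes limit what can be read, since 45 of 172, 32 of 155 and 37 of 158 members had both signals under 10.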
